A study of Brassica rapa subsp. pekinensis with 6 samples.

Results

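Long non-coding RNAs (lncRNAs) can arise close to protein-coding genes, and the transcripts described here are those assembled between annotated genes but within 2000 bp of an mRNA. They were chosen from the linear transcripts by 3 criteria, namely the class code u, which the assembler gives to transcripts outside every annotated gene, a length of at least 200 bases, and a gap of at most 2000 bp to the nearest mRNA of the reference annotation. Of 57931 linear transcripts, 1424 met the criteria, out of 3068 intergenic transcripts at any distance, and the nearest mRNAs came from a set of 33354. Expression values were not among the criteria. A class u transcript is listed only if it was assembled from reads of these libraries, however, and every member had counts in some library. The reference mRNAs did not have to meet this condition. The remaining 1644 intergenic transcripts lay farther from any mRNA.

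The libraries came from germinated seeds of Chinese cabbage, of the double haploid line 'FT', a single genetic line derived from 'Fukuda 50'. The Ver group (3 libraries) had been kept at 4 °C in darkness for 25 days, and the Nor group (3 libraries) had stayed at room temperature for about 48 hours, also in the dark. A biological repetition was a dish of 20 seeds. Both groups were sampled at the same length, so temperature and age cannot be told apart.

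Vernalization is the promotion of flowering by a long cold period. In Arabidopsis it works mainly through silencing of the floral repressor FLC, and lncRNAs transcribed at or near FLC take part in that silencing. More generally, a transcript beside a gene can share its promoter region, run into it, or be made independently of it. A transcript upstream on the same strand can be an unannotated start of the neighbouring gene, one upstream on the opposite strand is divergent, and one downstream on the opposite strand is convergent. For these reasons strand and side were kept apart here.

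Same-strand upstream transcripts were the largest class with 408 members, and their median gap to the mRNA was 420 bp. There were 254 same-strand downstream transcripts (median gap 624 bp), 211 opposite-strand upstream transcripts (632 bp) and 289 opposite-strand downstream transcripts (434 bp). A further 262 transcripts had a single exon and no strand, and all of them lay upstream of their neighbour (626 bp). Strandless transcripts just downstream of a gene have their own class code p, for run-on transcripts, which held 747 transcripts, 499 of them with no strand. For the same reason none of the same-strand downstream members had a single exon. The absence of strandless transcripts downstream is therefore a property of the class codes and not of the seeds.

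The 1424 transcripts came from 1139 assembled loci, of which 983 held 1 member, and were spread over all 10 chromosomes, with 85 on A04 and 222 on A03. They had 1108 different nearest mRNAs. A neighbour was shared by 490 members, and 337 members had a second mRNA within 2000 bp on their other side. Of the members, 14 belonged to the same assembled gene as their neighbour, and 8 touched it with no base between. At the edge of the distance criterion, MSTRG.8125.1, MSTRG.22859.1 and MSTRG.27799.1 lay 1977, 1977 and 1984 bp away, whereas the first transcripts left out, MSTRG.1484.3, MSTRG.1484.4 and MSTRG.1485.1, lay 2003 bp away.

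Lengths ran between 201 and 13053 bases with a median of 831, and the shortest class was the strandless one (median 436 bases, against 736 for same-strand upstream and 1290 for same-strand downstream transcripts). A single exon was found in 513 members, more than 5 exons in 217, and the most exons in any member was 27. The coding potential of the transcripts could not be examined because no sequences were at hand, so they are called intergenic transcripts below. Whether those with many exons are genes missing from the annotation was not tested.

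Most members were weakly expressed. Levels are given as FPKM, the deposited fragments per kilobase of transcript scaled to library size, so that transcripts of different length can be compared. The median of the mean FPKM over the 6 libraries was 1.30, 873 members reached 1 FPKM, 145 reached 10 and 21 reached 100. This median was 1.08 for the intergenic transcripts farther away and 1.17 for mRNAs with another mRNA within 2000 bp. Same-strand upstream transcripts had a median of 1.50 FPKM beside neighbours with a median of 1.90 FPKM. In the opposite-strand upstream class the members had a median of 1.50 FPKM and the neighbours one of 0.524 FPKM, and in the opposite-strand downstream class the values were 1.31 and 0.535 FPKM. Over all classes, 797 members (56.0%) had a higher mean FPKM than the mRNA beside them. The share was 57.2% for the intergenic transcripts farther away, so it was not particular to the members.

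Counts per library totalled between 83976912 and 104903263. The members held 5.30, 5.01 and 4.36% of the counts in Ver 1, Ver 2 and Ver 3, against 3.59, 3.13 and 4.33% in Nor 1, Nor 2 and Nor 3. In each library the 10 most abundant members held 63.2 to 77.4% of the members' counts, and without them the shares were 1.20, 1.16 and 1.31% in the Ver libraries and 1.14, 1.15 and 1.14% in the Nor libraries. The summed level of mRNAs for storage tissue (oleosins and seed storage proteins) was 1470 to 1500 FPKM in the Ver libraries and 89.2 to 96.5 FPKM in the Nor libraries, and that of green tissue mRNAs was 19300 to 19500 FPKM and 8310 to 8400 FPKM. Of the tested marker mRNAs, 20 of 29 storage tissue mRNAs rose and 2 fell, while 17 of 66 green tissue mRNAs rose. In such bulk samples, more cells of a type and more RNA per cell cannot be told apart, and the part of these tissues in the changes below was not tested.

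A transcript was called changed when its absolute log2 fold change (Ver against Nor) exceeded 1 and its adjusted p was at most 0.05 in an edgeR quasi-likelihood fit over all linear transcripts. Of the 1424 members, 1308 had enough counts to be tested. Among these, 179 (13.7%) were called, 105 higher and 74 lower in Ver. Over all 49351 tested transcripts 12.8% were called, 6.35% higher and 6.48% lower, so the share of members called was close to the background. The median log2 fold change was 0.08 for the members and 0.01 for all tested transcripts. Of the 299 called among the 1432 tested intergenic transcripts farther than 2000 bp from any mRNA (20.9%), 149 were higher and 150 lower. The difference between the near and the far transcripts was not tested.

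Of the called members, 113 changed by less than 2 on the log2 scale, 27 by 2 to 3 and 39 by 3 or more, and the median size was 1.68. In 7 of them every Ver library was at or under 3 counts, and in 5 every Nor library was. By class, 30 same-strand upstream transcripts rose and 21 fell of 387 tested (13.2%). Of 231 same-strand downstream transcripts 15 rose and 13 fell (12.1%), and of 191 opposite-strand upstream transcripts 14 rose and 8 fell (11.5%). The opposite-strand downstream class had 21 rises and 20 falls among 260 (15.8%), and the strandless class 25 rises and 12 falls among 239 (15.5%). The opposite-strand downstream count was 27 without Ver 2 and 27 without Nor 1, and the strandless count was 24 without Nor 1.

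**Figure D1:**
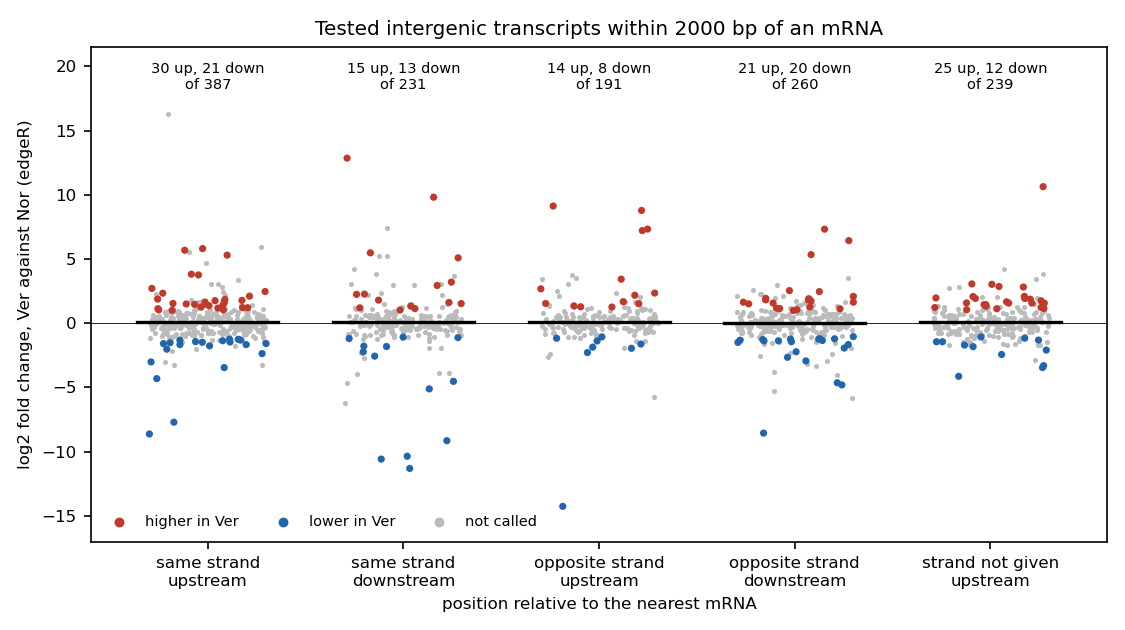
Log2 fold change (Ver against Nor, edgeR) of each tested intergenic transcript, by its position relative to the nearest mRNA. Red points were higher and blue points lower in Ver by the criteria in the text, grey points were not called, black bars are medians, and the medians of all 5 classes lie close to 0.

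The highest level among members with counts in every library belonged to MSTRG.4319.1, a single-exon transcript of 357 bases on the opposite strand downstream of an F-box/kelch-repeat mRNA (B. rapa v3.0, chromosome A02, 9781749 to 9782105). It had 27500, 30000 and 27900 FPKM in the Ver libraries, against 12600, 9810 and 13000 FPKM in the Nor libraries. All Ver libraries were above all Nor libraries, with a log2 fold change of 1.27 ± 0.12 (SE, n = 3 each, edgeR adjusted p = 0.0014). Its neighbour BraA02g017670.3C was below 0.5 FPKM in every library.

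Also abundant was MSTRG.19887.1, a strandless transcript of 337 bases on A07 (18246187 to 18246523), 1144 bp upstream of BraA07g022700.3C, a gene of unknown function. It reached 644, 613 and 650 FPKM in the Ver libraries and 1510, 1290 and 1440 FPKM in the Nor libraries, so that the Ver libraries were uniformly lower (log2 fold change -1.16 ± 0.07, edgeR adjusted p = 0.000295). This transcript is among the lncRNAs that the study placed in its network of competing RNAs. Other abundant members changed little. MSTRG.3949.1, divergent from BraA02g012000.3C, had 3030, 2560 and 2700 FPKM in Ver and 3270, 3070 and 2910 FPKM in Nor libraries, which overlapped (log2 fold change -0.16 ± 0.08, edgeR adjusted p = 0.202). MSTRG.17739.1, downstream of the mRNA for LOW PSII ACCUMULATION 3, a chloroplast protein, had 115 to 120 FPKM in Ver and 144 to 149 FPKM in Nor libraries (log2 fold change -0.32 ± 0.03). MSTRG.19966.1, upstream of an aspartic proteinase mRNA, had 324 to 369 FPKM in Ver and 394 to 421 FPKM in Nor libraries (log2 fold change -0.26 ± 0.06).

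Several very abundant members were listed at 0 in single libraries of a group. MSTRG.15569.1, 311 bases long and 1474 bp from a zinc-binding alcohol dehydrogenase mRNA, had 22500, 21300 and 21000 FPKM in the Ver libraries and 0, 0 and 20300 FPKM in the Nor libraries. The difference was not called (edgeR adjusted p = 0.79). Without Nor 3 it was called, so that a single library decided the call. MSTRG.12234.1 had 10100, 9230 and 0 FPKM in Ver and 9400, 9530 and 9380 FPKM in Nor libraries. MSTRG.29824.1, upstream of the mRNA for the chloroplast import protein TIC 40, had 1370, 0 and 1380 FPKM in Ver and 0, 0 and 1460 FPKM in Nor libraries. The level was thus either 0 or nearly the same value. MSTRG.30551.4, downstream of a myosin mRNA, followed with 394, 386 and 0 FPKM in Ver and 1080, 0 and 406 FPKM in Nor libraries.

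In all, 50 members had 0 counts in a library and at least 1000 in another, and in 47 of these the zeros stood beside counts above 0 in libraries of the same group. Only 4 of the 50 were called. MSTRG.11957.1 and MSTRG.11958.2 lie on opposite strands at the same place on A04, beside the mRNA of a CASP-like membrane protein. The first had 202, 378 and 0 FPKM in Ver and 272, 256 and 266 FPKM in Nor libraries, and the second had 163, 0 and 213 FPKM in Ver and 0 FPKM in every Nor library. The whole locus MSTRG.11958, with 2 members, summed to 68647, 143335 and 141765 counts in Ver and 108362, 85755 and 106792 counts in Nor libraries. These sums showed no gap of this kind. MSTRG.11957, the locus on the other strand, has 1 member. It summed to 74742, 143335 and 0 counts in Ver and 108362, 85758 and 106792 counts in Nor libraries. This sum stayed at 0 in Ver 3. In Ver 2 and in each Nor library it was equal or nearly equal to that of MSTRG.11958. How reads were divided between overlapping transcripts, or between the strands at such a place, was not tested. Levels with equal counts on both strands cannot be taken as separate measurements. Of the 1162 members with a strand, 86 overlapped a member on the other strand, and 47 had the same start and end as such a member. Restricting the counts to members with reads in all libraries left 162 calls, 97 higher and 65 lower.

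The largest rises and falls below are those among called members with a mean of at least 10 counts in the lower group. Among the same-strand upstream transcripts with such rises were 2 isoforms of the locus MSTRG.17888 on A06. MSTRG.17888.4 had 10.4, 3.71 and 9.12 FPKM in Ver and 0.174, 0.176 and 0.0545 FPKM in Nor libraries (log2 fold change 5.81 ± 0.69, edgeR adjusted p = 0.00303). MSTRG.17888.2 had 4.39, 4.88 and 3.19 FPKM in Ver and 0.0552, 0.132 and 0.118 FPKM in Nor libraries (5.30 ± 0.43). The groups were far apart in both. The neighbour BraA06g037200.3C, of unknown function, had 6.86 to 8.71 FPKM in Ver and 8.25 to 10.4 FPKM in Nor libraries and was not called. The sums over the 4 members of the locus gave 4.16 ± 0.23 on the log2 scale. MSTRG.7666.4 had 38.8, 39.9 and 26.4 FPKM in Ver and 0.503, 0.758 and 0.764 FPKM in Nor libraries (5.68 ± 0.29, edgeR adjusted p = 0.000163), and here the neighbour rose as well, as given below.

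The largest falls in the class were those of MSTRG.22036.1, MSTRG.24050.1 and MSTRG.14490.1. MSTRG.22036.1, a single exon 536 bp upstream of a primary amine oxidase mRNA, had 0.723, 0.725 and 0.562 FPKM in Ver and 5.56, 5.49 and 5.32 FPKM in Nor libraries (log2 fold change -3.01 ± 0.16, edgeR adjusted p = 0.000185). Amine oxidases break down polyamines, and this one was at or near 0 in every library. MSTRG.24050.1 had 0.774, 0.710 and 0.715 FPKM in Ver and 4.12, 3.75 and 3.46 FPKM in Nor libraries (-2.36 ± 0.13), whereas its neighbour, which encodes the exocyst subunit SEC15B of vesicle tethering, had 3.98 to 4.72 FPKM in Ver and 3.79 to 4.67 FPKM in Nor libraries. MSTRG.14490.1 had 0.324 to 0.495 FPKM in Ver and 1.61 to 1.81 FPKM in Nor libraries (-2.02 ± 0.25).

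Downstream on the same strand, MSTRG.28446.1 rose beside an mRNA near 0. It had 10.3, 9.51 and 11.9 FPKM in Ver and 1.24, 1.32 and 0.871 FPKM in Nor libraries (log2 fold change 3.20 ± 0.22, edgeR adjusted p = 0.00042), and the neighbouring mRNA of an importin, a carrier of nuclear import, stayed below 0.04 FPKM. MSTRG.24305.1, downstream of a salicylate/benzoate carboxyl methyltransferase mRNA, fell to 0.329, 0.390 and 0.378 FPKM in Ver, against 1.70, 2.39 and 2.68 FPKM in Nor libraries (-2.56 ± 0.28).

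Of the divergent transcripts, MSTRG.7005.1 on A03 (6051643 to 6052715) differed in an all-or-none manner. It had 0 counts in each Ver library, against 2569, 1994 and 2734 counts in the Nor libraries. Against a floor of 3 counts per library it was at least 800-fold lower in Ver (edgeR adjusted p = 0.0001). The mRNA 1774 bp away, BraA03g013830.3C, had 0.586, 1.13 and 1.12 FPKM in Ver and 0.800, 0.876 and 0.995 FPKM in Nor libraries and was not called. MSTRG.5494.1, another transcript named by the study, rose to 1.03, 1.16 and 1.15 FPKM in Ver, against 0.188, 0.262 and 0.202 FPKM in Nor libraries (2.35 ± 0.19). MSTRG.19896.1, beside a calcium-transporting ATPase mRNA, had 5.10, 4.46 and 4.79 FPKM in Ver and 1.34, 0.998 and 0.816 FPKM in Nor libraries (2.18 ± 0.24), and the ATPase mRNA itself, a calcium pump, was not called. The divergent transcripts with the largest falls were MSTRG.367.1 (log2 fold change -2.28 ± 0.29), MSTRG.16475.2 (-1.95 ± 0.39) and MSTRG.27278.1 (-1.86 ± 0.22). MSTRG.16475.2 had only 7 to 14 counts in the Ver libraries and lost its call when any of Ver 3, Nor 1, Nor 2 or Nor 3 was left out.

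Among convergent transcripts, MSTRG.15457.1 fell to 3.76, 2.84 and 2.91 FPKM in Ver, against 19.2, 19.4 and 21.0 FPKM in Nor libraries (log2 fold change -2.65 ± 0.16, edgeR adjusted p = 0.000283). The oxoglutarate-dependent dioxygenase mRNA 214 bp away had at most 0.203 FPKM in Ver and 0.155 to 0.680 FPKM in Nor libraries and was not called. MSTRG.24827.3, beside a nucleoside transporter mRNA, rose to 2.78, 1.48 and 3.19 FPKM in Ver, against 0.238, 0.479 and 0.554 FPKM in Nor libraries (2.54 ± 0.46). MSTRG.15419.1, also named by the study, had 0.735, 0.870 and 0.990 FPKM in Ver and 2.63, 1.84 and 2.83 FPKM in Nor libraries (-1.49 ± 0.24, edgeR adjusted p = 0.0091). Its neighbour, a pentatricopeptide repeat mRNA, a type of organelle RNA-binding protein, was not called.

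In the strandless class, MSTRG.23053.1 lay 339 bp upstream of a ZAT10-like mRNA. ZAT10 is a zinc finger repressor of the stress response in Arabidopsis. The transcript had 5.72, 5.75 and 6.27 FPKM in Ver and 0.539, 0.844 and 0.779 FPKM in Nor libraries, so that it was higher in every Ver library (log2 fold change 3.03 ± 0.20, edgeR adjusted p = 0.000416). The ZAT10-like mRNA had 1.27, 1.64 and 2.10 FPKM in Ver and 3.15, 3.30 and 3.15 FPKM in Nor libraries, a log2 fold change of -0.94 ± 0.22 that stayed within the fold threshold. MSTRG.28296.1, upstream of an HFR1-like mRNA at or near 0, rose to 1.36, 1.35 and 1.56 FPKM in Ver, against 0.0535, 0.223 and 0.221 FPKM in Nor libraries (3.06 ± 0.54). MSTRG.15002.1, upstream of the mRNA of GTP cyclohydrolase, which starts folate synthesis, fell to 0.224, 0.0856 and 0.164 FPKM in Ver, against 1.55, 1.44 and 1.84 FPKM in Nor libraries (-3.30 ± 0.41), while the mRNA was not called (0.11 ± 0.11). MSTRG.25712.1, upstream of a protein phosphatase mRNA, fell by 2.09 ± 0.42 on the log2 scale, a call lost without Ver 1, Ver 2, Nor 1 or Nor 3.

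**Figure D2:**
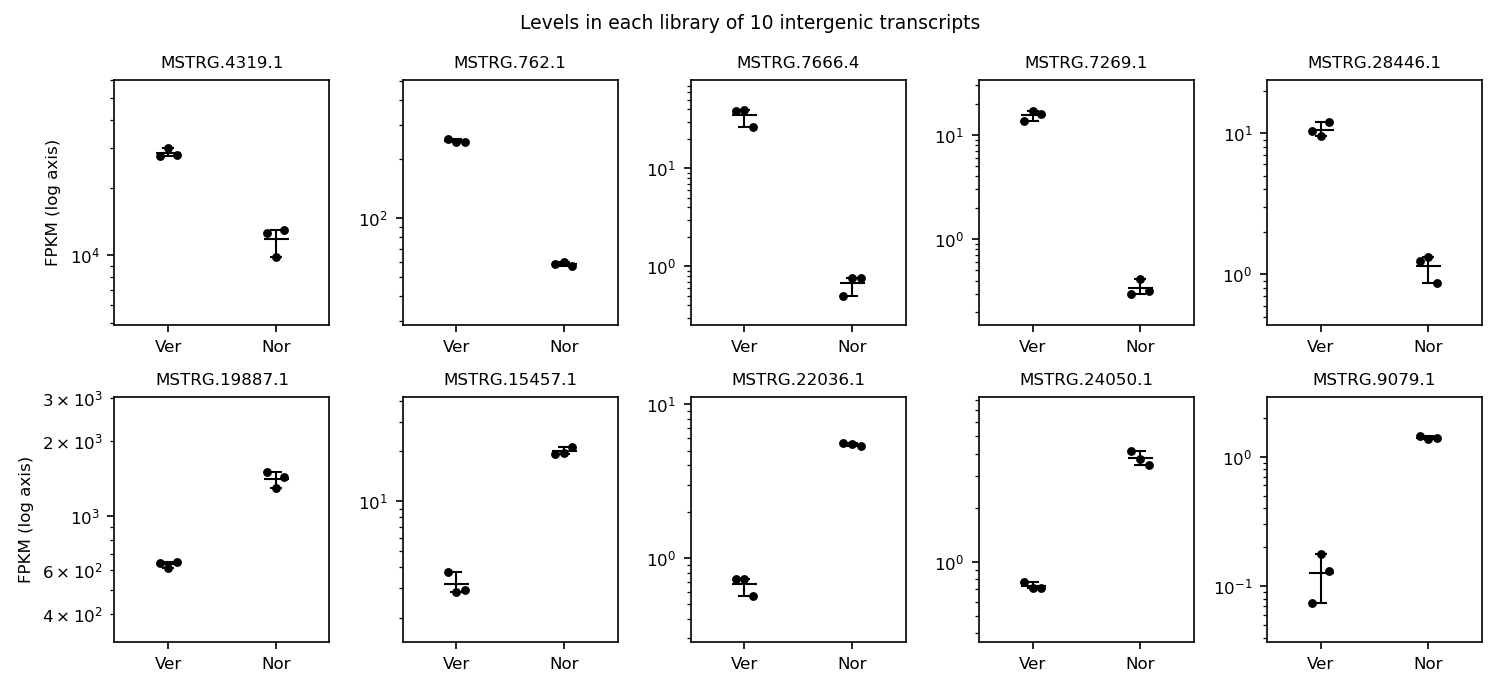
FPKM in each library (points, log axis) of 10 intergenic transcripts, Ver left and Nor right. Horizontal marks are means of 3 libraries and bars run from the lowest to the highest library. In each panel the groups do not overlap, the upper 5 being higher and the lower 5 lower in Ver.

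A single place on A07 (17696348 to 17699485) held 29 members, on both strands, downstream of BraA07g021790.3C, an mRNA for a histone H2A variant that had 0.301, 0.641 and 0.772 FPKM in Ver and 0.404, 0.338 and 0.270 FPKM in Nor libraries. The locus MSTRG.19819 (13 members on the strand of the mRNA) had 1 called rise and 3 called falls, and the locus MSTRG.19820 (16 members on the other strand) had 2 called rises and 1 called fall. MSTRG.19819.9 had 0.734, 0.597 and 0.559 FPKM in Ver and 4.05, 28.9 and 32.8 FPKM in Nor libraries (log2 fold change -5.11 ± 0.87). MSTRG.19819.3 had 0.754, 0.743 and 1.20 FPKM in Ver and 5.06, 24.2 and 32.7 FPKM in Nor libraries (-4.52 ± 0.78). The first call was lost without Ver 2 or Ver 3 and the second without Ver 1 or Ver 2. MSTRG.19820.16 had 0.675, 0.860 and 1.89 FPKM in Ver and 28.7, 27.4 and 28.6 FPKM in Nor libraries (-4.63 ± 0.46, edgeR adjusted p = 0.00165). In contrast, MSTRG.19820.1, a single exon over the whole place, had 9920, 5226 and 6642 counts in Ver and 138, 1 and 2 counts in Nor libraries (edgeR adjusted p = 0.0406), and it lost its call without Ver 1, Ver 2, Ver 3, Nor 2 or Nor 3. MSTRG.19820.7 had 346, 374 and 1051 counts in Ver and 11, 27 and 2 counts in Nor libraries (edgeR adjusted p = 0.0209), a call lost without Ver 3 or Nor 1, and MSTRG.19819.8 was present in Nor 2 alone, with 7694 counts.

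Summed over its members, MSTRG.19819 had 10033, 10536 and 10683 counts in Ver and 47423, 34950 and 57177 counts in Nor libraries. The sums were lower in all Ver libraries (log2 fold change -2.16 ± 0.12, edgeR adjusted p = 0.000223). The sums of MSTRG.19820 were 14259, 7281 and 9615 counts in Ver and 13304, 10832 and 12540 counts in Nor libraries, which overlapped (-0.24 ± 0.26, edgeR adjusted p = 0.57). Opposite calls among isoforms of a locus were also present at MSTRG.18967, upstream of an F-box/kelch-repeat mRNA. There MSTRG.18967.1 had 3.49, 3.26 and 3.37 FPKM in Ver and 0.864, 0.952 and 1.13 FPKM in Nor libraries (1.78 ± 0.13), while MSTRG.18967.2 had 1.07, 1.33 and 1.15 FPKM in Ver and 2.59, 3.23 and 2.61 FPKM in Nor libraries (-1.25 ± 0.16). This locus was singled out after its values were seen. Of 130 loci with at least 2 tested members, 26 had a called member, 3 had every tested member called in 1 direction, and 3 had calls in both.

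Next, the members were set beside their nearest mRNAs. Of 1108 neighbours, 909 were tested and 105 (11.6%) were called, 54 higher and 51 lower, against 14.4% of all tested mRNAs (6.75% higher and 7.70% lower). In 1051 pairs both the member and the mRNA were tested. Both were called in 20 pairs, the member alone in 114, the mRNA alone in 91 and neither in 826. Of the 20, 14 changed in the same direction (9 rose, 5 fell) and 6 in opposite directions. These 6 became 3 when Nor 2 was left out. By class, same and opposite directions were found in 6 and 2 same-strand upstream pairs, 2 and 1 same-strand downstream pairs, 1 and 1 divergent pairs, 1 and 0 convergent pairs, and 4 and 2 strandless pairs. For comparison, 13867 mRNAs with their nearest mRNA within 2000 bp had both sides tested, and in 288 both were called. Of these, 172 changed in the same direction and 116 in opposite directions, and of the divergent ones 29 of 33 went the same way. These pairs were counted for each mRNA, so mRNAs nearest to each other counted in both orders. Among the intergenic transcripts farther away, both were called in 46 of 1068 pairs, 35 in the same and 11 in opposite directions. The differences between these sets were not tested. The divergent intergenic pairs with both called, 2 in all, were too few to set beside the divergent mRNA pairs.

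**Figure D3:**
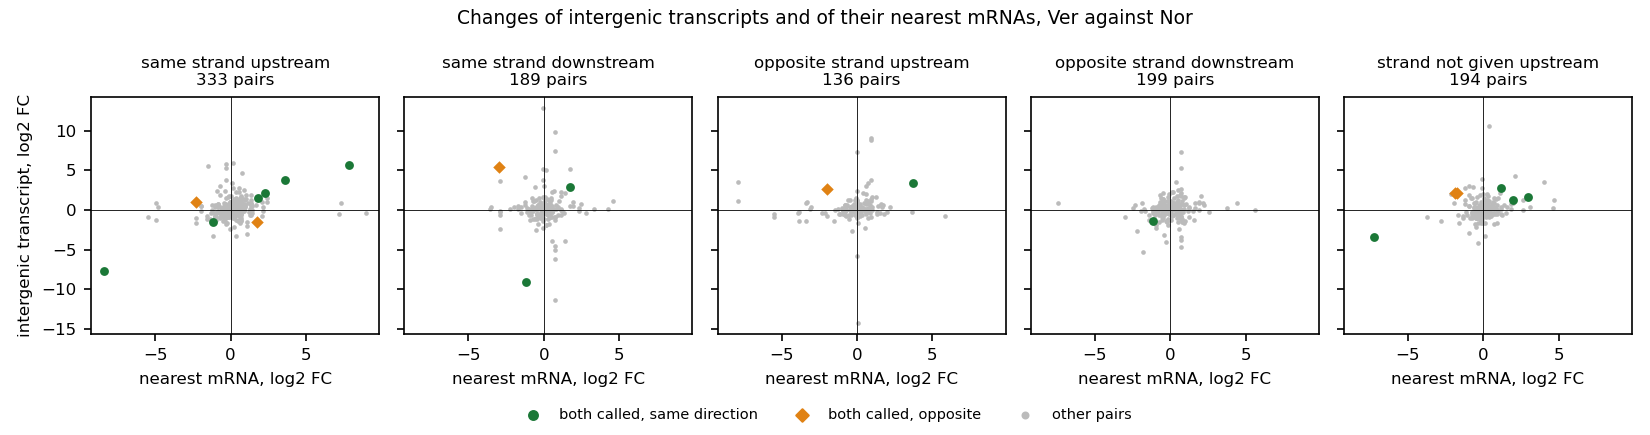
Log2 fold change (Ver against Nor) of each intergenic transcript (y axis) against that of its nearest mRNA (x axis), in 5 panels by position. Green circles mark the 14 pairs called in the same direction and orange diamonds the 6 pairs called in opposite directions, and grey points are the other tested pairs.

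For the 6 opposite pairs the ratio of transcript to mRNA within each library, from a limma fit over 23704 pairs, is given as a description only, since both sides had already been called in opposite directions. In MSTRG.762.1, a strandless transcript on A01 1859 bp upstream of the mRNA of a PYR1-like abscisic acid receptor, the levels were 253, 245 and 245 FPKM in Ver and 58.6, 59.6 and 57.1 FPKM in Nor libraries (log2 fold change 2.08 ± 0.03, edgeR adjusted p = 4.6e-06). The receptor mRNA, BraA01g009450.3C, had 0.771, 0.366 and 0.899 FPKM in Ver and 2.13, 2.68 and 2.83 FPKM in Nor libraries (-1.90 ± 0.39, edgeR adjusted p = 0.0192). The ratio changed by 3.36 ± 0.20 on the log2 scale. PYR1 proteins bind abscisic acid, the hormone of seed dormancy and drought.

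MSTRG.7269.1, downstream of BraA03g017780.3C on the same strand, had 13.7, 16.9 and 15.8 FPKM in Ver and 0.298, 0.411 and 0.317 FPKM in Nor libraries (log2 fold change 5.48 ± 0.19). The mRNA, of unknown function, had 0.830, 0.637 and 0.852 FPKM in Ver and 5.67, 6.50 and 5.84 FPKM in Nor libraries (-2.95 ± 0.18). The ratio changed by 6.46 ± 0.18. By FPKM the member was the more abundant of the pair in Ver and the mRNA in Nor libraries. The same exchange was seen in the divergent pair of MSTRG.10804.1 and BraA04g006460.3C only in part, since in Nor libraries their levels overlapped. MSTRG.10804.1 had 2.38, 2.67 and 2.78 FPKM in Ver and 0.264, 0.548 and 0.401 FPKM in Nor libraries (2.68 ± 0.31), and the mRNA had 0.108, 0.0992 and 0.244 FPKM in Ver and 0.779, 0.470 and 0.604 FPKM in Nor libraries (-1.98 ± 0.47).

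MSTRG.2731.1 lay 1044 bp upstream of BraA01g040070.3C, an mRNA for a pectinesterase, which removes methyl groups from cell wall pectin. The transcript rose to 2.25, 2.78 and 2.58 FPKM in Ver, against 0.521, 0.506 and 0.721 FPKM in Nor libraries (log2 fold change 2.09 ± 0.25). The pectinesterase mRNA fell to 2.86, 3.24 and 3.09 FPKM in Ver, against 10.0, 10.7 and 10.2 FPKM in Nor libraries (-1.75 ± 0.07), and the ratio changed by 2.86 ± 0.15. The other two pairs, chosen after their values were seen to complete the 6, were both same-strand upstream. MSTRG.8598.1 had 20.7, 20.4 and 20.9 FPKM in Ver and 10.6, 9.08 and 10.2 FPKM in Nor libraries (1.05 ± 0.09). Its neighbour, annotated only as a probable mediator subunit, had 5.40, 5.10 and 6.33 FPKM in Ver and 27.8, 28.3 and 27.5 FPKM in Nor libraries (-2.31 ± 0.09). MSTRG.17327.1 had 0.346, 0.441 and 0.198 FPKM in Ver and 1.13, 0.714 and 1.11 FPKM in Nor libraries (-1.58 ± 0.40), and its neighbour of unknown function had 2.23, 2.03 and 1.95 FPKM in Ver and 0.631, 0.666 and 0.522 FPKM in Nor libraries (1.76 ± 0.21).

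**Figure D4:**
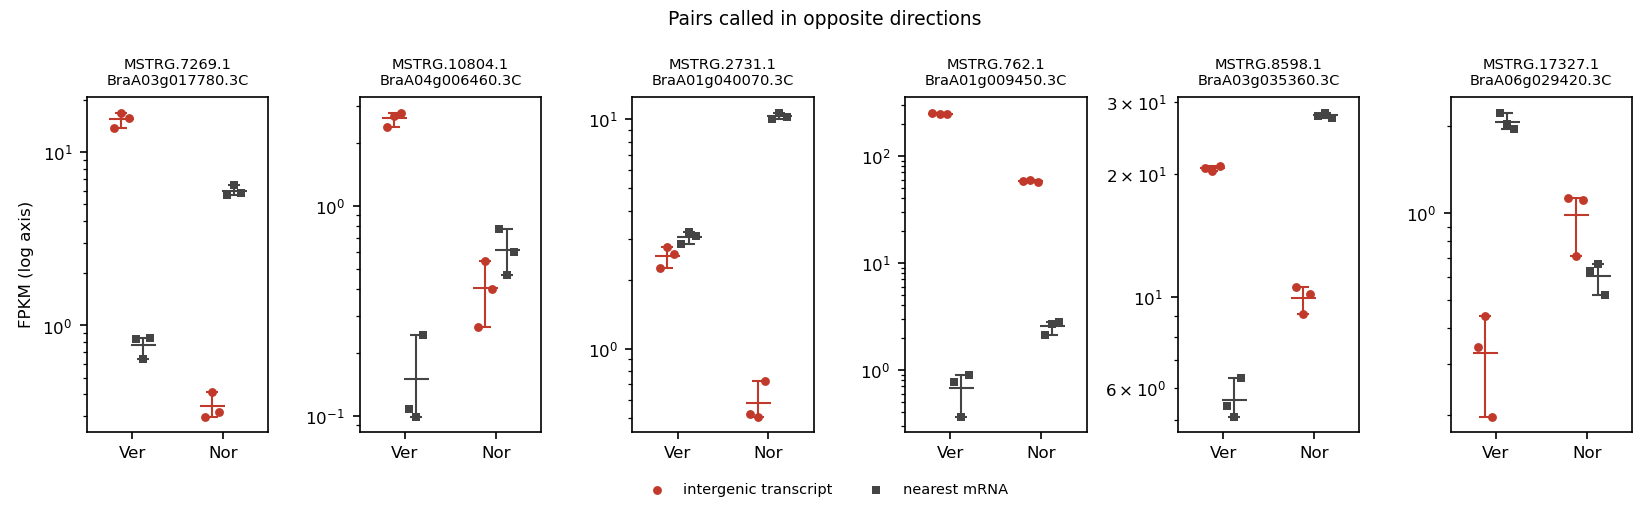
FPKM in each library (points, log axis) for the 6 pairs called in opposite directions, intergenic transcript in red circles and nearest mRNA in dark squares, Ver left and Nor right. Horizontal marks are means of 3 libraries and bars run from the lowest to the highest library. In 5 panels the transcript is higher and the mRNA lower in Ver, and in the panel of MSTRG.17327.1 the reverse holds.

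The 14 pairs that moved together are given next, most of them named after their values were seen. MSTRG.7666.4 and BraA03g022820.3C had the largest common rise, the mRNA having 22.7, 24.2 and 21.9 FPKM in Ver and 0.1, 0.180 and 0 FPKM in Nor libraries (log2 fold change 7.84 ± 1.04, edgeR adjusted p = 0.00454). Its product is not described. MSTRG.13445.1 lay 104 bp upstream of the mRNA of TCP10, a regulator of leaf development in Arabidopsis. It rose to 2.66, 2.93 and 2.61 FPKM in Ver, against 0.708, 0.555 and 0.599 FPKM in Nor libraries (2.11 ± 0.22), and TCP10 rose to 17.2, 16.3 and 18.5 FPKM in Ver, against 3.83, 4.12 and 2.71 FPKM in Nor libraries (2.28 ± 0.18). MSTRG.1864.1 (1.54 ± 0.28) rose with an mRNA for an indeterminate-domain zinc finger protein (1.80 ± 0.23), and MSTRG.21629.1 (3.82 ± 0.75) rose with a myrosinase-binding protein mRNA (3.62 ± 0.66), which belongs to the glucosinolate defence of this family.

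MSTRG.4576.1, 1160 bp downstream of an alpha-dioxygenase mRNA whose product oxidises fatty acids, had 1.03, 1.26 and 1.09 FPKM in Ver and 0.0967, 0.146 and 0.194 FPKM in Nor libraries (log2 fold change 2.94 ± 0.31), and the mRNA rose by 1.75 ± 0.15. The divergent pair that rose together was MSTRG.24078.1 (3.43 ± 0.48) with an mRNA of raffinose synthesis, a galactinol-sucrose galactosyltransferase (3.71 ± 0.27). Among strandless pairs, MSTRG.27477.1 (1.67 ± 0.32) rose with an mRNA for extensin, a cell wall protein (2.95 ± 0.10), and MSTRG.345.1 and MSTRG.7741.1 rose with mRNAs of unknown function.

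Of the pairs that fell, MSTRG.9079.1 lay 27 bp upstream of BraA03g042440.3C, an ALD1-like aminotransferase mRNA. ALD1 makes a precursor of pipecolic acid, an immune signal in Arabidopsis. The transcript had 0.0736, 0.178 and 0.131 FPKM in Ver and 1.44, 1.36 and 1.40 FPKM in Nor libraries (log2 fold change -3.45 ± 0.36), and the mRNA had 0 FPKM in each Ver library and 0.194, 0.0981 and 0.0827 FPKM in the Nor libraries (edgeR adjusted p = 0.0165). MSTRG.4976.1, 1 bp upstream of a dehydrodolichyl diphosphate synthase mRNA, and that mRNA were both at 0 in every Ver library, with 0.716, 1.19 and 0.916 FPKM and 0.263, 0.486 and 0.583 FPKM in the Nor libraries. MSTRG.9027.1 (-1.58 ± 0.32) fell with a fasciclin-like arabinogalactan protein mRNA of the cell wall (-1.17 ± 0.03), and MSTRG.5706.1 (-1.36 ± 0.22), the convergent pair, fell with BraA02g042320.3C (-1.12 ± 0.12), 1 bp away. MSTRG.17820.1, at 0 in every Ver library and at 1.44, 0.840 and 0.701 FPKM in Nor libraries, lay downstream of the mRNA of a COBRA-like protein of the cell wall, which fell by 1.17 ± 0.06.

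Over all 1051 tested pairs, the member and its mRNA had log2 fold changes of the same sign in 607 (57.8%). The share was 63.8% of 495 pairs with a gap of 0 to 500 bp, 53.3% of 272 pairs at 501 to 1000 bp and 51.4% of 284 pairs at 1001 to 2000 bp. Among called members alone it was 41 of 52 (78.8%), 20 of 33 (60.6%) and 24 of 49 (49.0%) for the same gaps. Spearman's correlation across the pairs, which all come from the same 6 libraries and are not independent, was 0.30, 0.11 and 0.04. For mRNAs beside mRNAs the same-sign shares were 52.2, 49.8 and 52.0%. Convergent pairs made up 2905 of the 4336 within 500 bp. The mRNA pairs were again counted for each mRNA, with mRNAs nearest to each other counted in both orders. For intergenic transcripts beyond 2000 bp the share was 49.0%. These shares and correlations are descriptions and the differences between them were not tested.

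The shares were also split by exon number and position. Within 500 bp, the same sign was found in 72.4% of 221 single-exon members and 56.9% of 274 members with more exons. Same-strand upstream pairs within 500 bp agreed in sign in 68.8% of 189 and strandless ones in 74.1% of 85, with Spearman correlations of 0.45 and 0.58. In the other classes the values within 500 bp were 50.0% of 62 same-strand downstream pairs, 60.4% of 53 divergent pairs and 56.6% of 106 convergent pairs. Among mRNA pairs within 500 bp, the same sign was found in 57.0% of 493 same-strand upstream pairs (Spearman 0.24), 58.5% of 439 same-strand downstream pairs (0.27), 50.5% of 499 divergent pairs and 50.7% of 2905 convergent pairs. When 1 member was kept per neighbour, the one with the most counts, the shares by gap were 67.1, 51.4 and 53.1%, and the share within 500 bp was again the highest. Whether the close upstream transcripts are unannotated starts of the mRNAs was not tested.

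**Figure D5:**
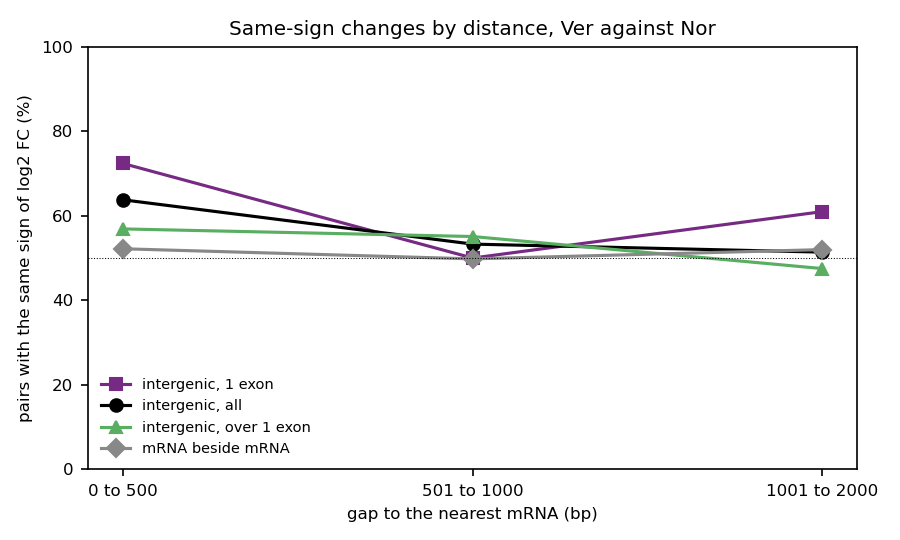
Percent of pairs whose 2 log2 fold changes (Ver against Nor) have the same sign (y axis), by gap to the nearest mRNA (x axis, bp), for all intergenic transcripts, those with 1 exon and those with more, and for mRNAs beside mRNAs. The dotted line is at 50%. The share for 1-exon transcripts is 72.4% within 500 bp, 50.0% at 501 to 1000 bp and higher again (50 of 82 pairs) beyond. That of mRNA pairs, pooled over positions and counted for each mRNA, stays between 49.8 and 52.2%.

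The ratio of member to mRNA was called in 163 of the 1051 pairs (15.5%), higher in Ver in 89 and lower in 74. The background over all tested pairs was 18.8% (9.31% higher and 9.51% lower), and the share was 23.9% for the intergenic transcripts farther away. In the background, mRNAs nearest to each other entered in both orders, with ratios of opposite sign. Its shares higher and lower are therefore alike partly by construction and give no reference for direction. The ratio of member to mRNA was called in 9.70% of pairs within 500 bp, 17.6% at 501 to 1000 bp and 23.6% beyond 1000 bp. Of 134 called members with a tested neighbour, 73 also had a called ratio. A further 45 called members lay beside an mRNA with too few counts to be tested.

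The neighbours were then grouped by words in their descriptions. Flowering genes were few, and 9 members lay beside 5 of them. All 9 members were tested and 1 was called, where 20.5% of all tested flowering mRNAs and 12.8% of all tested transcripts were. MSTRG.3968.1, 65 bp from the 3' side of BraA02g012310.3C on the opposite strand (A02, 6036866 to 6037880), is the neighbour of a VERNALIZATION INSENSITIVE 3-like gene. In Arabidopsis this gene is induced by cold and is needed for the silencing of FLC. The transcript had 14.2, 13.7 and 15.9 FPKM in Ver and 13.4, 12.1 and 14.2 FPKM in Nor libraries, which overlapped (log2 fold change 0.13 ± 0.10, edgeR adjusted p = 0.414). The reference mRNA itself was at 2.39, 0 and 0 FPKM in Ver and 0 FPKM in every Nor library, and was not tested. Any other assembled isoforms of the gene were not counted with it, so these values do not give the level of the whole gene. The study listed this gene among those not differentially expressed.

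The flowering member that was called was MSTRG.5777.1, 1234 bp downstream of the mRNA of AGL42, a MADS-box factor that promotes flowering in Arabidopsis. It had 1.09, 0.935 and 0.977 FPKM in Ver and 0.338, 0.504 and 0.477 FPKM in Nor libraries (log2 fold change 1.17 ± 0.25, edgeR adjusted p = 0.0214). AGL42 had 0.397, 0.266 and 0.308 FPKM in Ver and 0.124, 0.262 and 0.154 FPKM in Nor libraries and was not called (0.80 ± 0.41, edgeR adjusted p = 0.22). MSTRG.29840.1, 965 bp upstream of a truncated FRIGIDA-like mRNA, had 7.14, 7.49 and 6.93 FPKM in Ver and 11.3, 11.1 and 11.3 FPKM in Nor libraries. FRIGIDA activates FLC in Arabidopsis. The libraries did not overlap, but the log2 fold change of -0.65 ± 0.04 was within the threshold (edgeR adjusted p = 0.000368), as was that of the mRNA (0.48 ± 0.12), and the ratio between them was called (-1.08, limma adjusted p = 0.000932).

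MSTRG.11497.1, upstream of a CONSTANS-LIKE 3 mRNA, had 7.97, 8.65 and 8.66 FPKM in Ver and 9.34, 8.79 and 7.76 FPKM in Nor libraries (log2 fold change -0.04 ± 0.10). The remaining 5 flowering members were isoforms of the locus MSTRG.334, divergent from the mRNA of AGAMOUS-LIKE 16, a repressor of flowering in Arabidopsis. None was called, and the sums over the locus were 410, 614 and 516 counts in Ver and 610, 400 and 610 counts in Nor libraries (-0.08 ± 0.19, edgeR adjusted p = 0.824). MSTRG.334.2 had the lowest adjusted p, 0.0801.

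Beside genes of cold and desiccation, 0 of 3 members were called at an adjusted p of at most 0.05 in edgeR while 2 of the 3 mRNAs rose. The count was also 0 at an unadjusted p under 0.05 and with DESeq2. Over all tested mRNAs of this kind 52.1% were called, and over all tested transcripts 12.8%. MSTRG.25321.1, convergent with an mRNA for a late embryogenesis abundant protein, a protectant of drying seeds, had 0.732, 0.732 and 1.07 FPKM in Ver and 0.780, 0.698 and 0.555 FPKM in Nor libraries (log2 fold change 0.31 ± 0.28). That mRNA had 3.17, 2.50 and 2.36 FPKM in Ver and 0.0369, 0.175 and 0.374 FPKM in Nor libraries (3.75 ± 0.82, edgeR adjusted p = 0.0245), and the ratio fell by 2.25 ± 0.34 (limma adjusted p = 0.00483). MSTRG.7149.1, 670 bp upstream of a dehydration-responsive element-binding (DREB) factor mRNA, had 0, 0 and 47 counts in Ver and 0, 19 and 23 counts in Nor libraries, and the mRNA rose by 1.16 ± 0.27 on the log2 scale. MSTRG.13006.1 and another DREB-type mRNA beside it were not called.

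Genes of seed storage and photosynthesis, whose summed levels were higher in Ver as given above, had few members beside them. MSTRG.28898.1 lay 6 bp from the 3' side of an oleosin mRNA, which encodes a coat protein of oil bodies. The transcript had 3.81, 3.74 and 3.28 FPKM in Ver and 2.10, 2.01 and 1.97 FPKM in Nor libraries (log2 fold change 0.83 ± 0.12, within the threshold), and the oleosin mRNA rose to 25.6, 28.0 and 24.5 FPKM in Ver, against 1.44, 1.09 and 1.10 FPKM in Nor libraries (4.41 ± 0.17, edgeR adjusted p = 6.5e-05). The ratio fell by 3.0 on the log2 scale (limma adjusted p = 7.72e-05). MSTRG.7298.1, 1302 bp upstream of a chlorophyll a-b binding protein mRNA of the light-harvesting antenna, had 0.655, 0.889 and 0.798 FPKM in Ver and 0.453, 0.451 and 0.226 FPKM in Nor libraries and was not called (edgeR adjusted p = 0.108), while the mRNA rose by 2.11 ± 0.02. MSTRG.9384.1, upstream of a GDSL lipase mRNA, rose to 2.39, 2.12 and 2.07 FPKM in Ver, against 1.21, 0.827 and 0.925 FPKM in Nor libraries (1.15 ± 0.19).

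Of 57 tested members beside transcription factor genes, 7 rose and 1 fell, and of their 40 tested neighbours 3 rose and 1 fell, beside 12.8% of all tested transcripts and 17.3% of all tested mRNAs of this kind called. Apart from those beside TCP10, ZAT10-like and HFR1-like, the members that rose lay beside ethylene-responsive factors (MSTRG.11424.1, MSTRG.22681.1 and MSTRG.26187.1) and a heat stress factor (MSTRG.5769.1). MSTRG.5769.1 had 3.14, 3.15 and 2.54 FPKM in Ver and 0.925, 0.841 and 0.588 FPKM in Nor libraries (log2 fold change 1.87 ± 0.27), and its neighbour was not called (-0.95 ± 0.30). MSTRG.11424.1 (1.57 ± 0.27) and its neighbour (-0.76 ± 0.29) had the same arrangement of signs. The member that fell, MSTRG.8026.1 (-1.82 ± 0.49), also lay beside an ethylene-responsive factor. Of 17 tested members beside hormone genes, 4 rose and 2 fell, where 19.7% of all tested hormone mRNAs and 12.8% of all tested transcripts were called. Of these 6, 4 are the ones beside ethylene-responsive factors. The others are MSTRG.762.1 and MSTRG.9932.1, convergent with the mRNA of a cytokinin dehydrogenase, an enzyme of cytokinin breakdown. MSTRG.9932.1 fell to 1.79, 1.70 and 1.72 FPKM in Ver, against 4.71, 4.26 and 4.04 FPKM in Nor libraries (-1.32 ± 0.10, edgeR adjusted p = 0.000618). These members were named after their values were seen.

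The largest group, 152 members beside genes described as kinases or ubiquitin ligases, had 15 rises and 7 falls among 137 tested, and 0 rises and 6 falls among 88 tested neighbours. Of these neighbours, 22 were higher in Ver at an unadjusted p under 0.05 in edgeR, whatever their fold, and DESeq2 called 1 higher. At an adjusted p of at most 0.05, edgeR called 10.7% of all tested mRNAs with such descriptions. Over all tested mRNAs 6.75% were called higher and 7.70% lower. For all tested transcripts the shares were 6.35% and 6.48%, or 12.8% in either direction. The words also caught enzymes of sugar metabolism, such as pyruvate kinase and fructokinase. Of the members, MSTRG.3037.1, 7 exons long and 1415 bp upstream of an inactive receptor kinase mRNA, had 11.1, 11.4 and 11.4 FPKM in Ver and 2.34, 2.18 and 2.15 FPKM in Nor libraries (log2 fold change 2.34 ± 0.07, edgeR adjusted p = 2.49e-05). The receptor kinase mRNA had 5.63, 5.13 and 5.94 FPKM in Ver and 10.4, 9.97 and 10.2 FPKM in Nor libraries (-0.87 ± 0.07), and the ratio changed by 3.08 on the log2 scale.

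MSTRG.2155.1 and MSTRG.2156.1 occupy the same place on A01 (21107434 to 21108421) on opposite strands, upstream of a plastid pyruvate kinase mRNA. MSTRG.2156.1, on the strand of the mRNA, had 8.64, 8.04 and 7.70 FPKM in Ver and 1.43, 1.21 and 1.74 FPKM in Nor libraries (log2 fold change 2.47 ± 0.17), and MSTRG.2155.1 had 364, 326 and 349 counts in Ver and 1, 0 and 1 counts in Nor libraries. MSTRG.22479.1, beside an Aurora-like kinase mRNA of cell division, had 165, 209 and 226 counts in Ver and 0 counts in each Nor library, while the mRNA was not called. MSTRG.17125.1 had 2.18, 2.22 and 1.59 FPKM in Ver and 9.37, 9.63 and 8.94 FPKM in Nor libraries (-2.22 ± 0.17) beside a nucleoside diphosphate kinase mRNA at 116 to 125 FPKM in Ver and 122 to 128 FPKM in Nor libraries. These 5 transcripts beside kinase genes were named after their values were seen. Of 11 members beside cell wall genes, 2 rose and 1 fell, all described above, and of 16 tested members beside genes of translation 1 rose. Of all tested mRNAs 29.9% were called in the cell wall list and 3.23% in the translation list, against 12.8% of all tested transcripts.

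Of the lncRNAs singled out by the study, 5 are members. Besides MSTRG.19887.1, MSTRG.5494.1 and MSTRG.15419.1, these are MSTRG.28814.1, with 1.59, 0.967 and 0.778 FPKM in Ver and 0.111, 0 and 0.109 FPKM in Nor libraries, which was not called (edgeR adjusted p = 0.0692) but was without Nor 2 and with DESeq2, and MSTRG.9400.2, with 252, 184 and 0 counts in Ver and 0 counts in every Nor library, which was not tested. The mRNA 4 bp from MSTRG.9400.2, BraA03g046960.3C, rose by 1.58 ± 0.33 on the log2 scale. As the study chose these transcripts on the same libraries, their changes are not independent evidence.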

How the data were processed

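RNA of 3 Ver and 3 Nor dishes was depleted of ribosomal RNA and sequenced as stranded paired-end libraries. The estimated counts and the FPKM values of each transcript were deposited by the authors, who trimmed reads with Cutadapt, aligned them with Bowtie2 and TopHat2 to B. rapa v3.0 and assembled and quantified transcripts with StringTie and Ballgown; versions are not given in the sources used here. The labels also list HISAT2. A deposited FPKM of 0.0001 was read as 0. StringTie divides reads among overlapping transcripts, so counts of isoforms depend on each other. The circRNA table was not used.

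The nearest mRNA (class code 0) was found by start and end columns on the same chromosome, and upstream and downstream follow the strand of the mRNA. With R 4.3.3 and edgeR 4.0.16, all linear transcripts were filtered by filterByExpr, scaled by TMM and compared by the quasi-likelihood F test on the estimated counts, and p-values were adjusted by Benjamini-Hochberg over the 49351 that passed. The SE is the absolute log2 fold change divided by the root of the F statistic. Ratios to the nearest mRNA were fitted with limma 3.58.1 (trend) on normalized CPM with 0.5 added. Both fits were tested on simulated data. Deviations of same-numbered libraries correlated by 0.002 to 0.009, so the numbers were not taken as pairs. Depth per library limits precision mainly for members with few counts.

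Members named are, per class, the 3 largest rises and 3 largest falls among called members with no overlap between groups and a mean of at least 10 counts in the lower group, the 2 highest in FPKM, members at the floor of 3 counts, the 3 largest opposite pairs, lncRNAs named by the study, and members beside called flowering or cold genes. Members and lists were chosen with earlier results of these data known. Alternatives were DESeq2 1.42.0, limma on FPKM, other normalizations, filters, thresholds and gaps, sums per gene or locus, a replicate block and each library left out.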

Additional observations from a re-analysis of the deposited data

How the results depend on the processing

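The 179 called members became 98 (68 higher, 30 lower) with limma on log2(FPKM + 1) and 118 with a mean CPM of at least 1, which tests fewer transcripts. DESeq2 gave 263, sums over a locus 163, and 1 member per neighbour 155, the last added after seeing the data. Limiting the gap to 500 or 1000 bp left 71 and 118, by construction. Neighbours numbered 60 with limma on log2(FPKM + 1) in place of 105, and 147 with counts summed per gene. Same-direction pairs numbered 5 at a mean CPM of at least 1, 27 with the unadjusted p and 23 with neighbour counts summed per gene, and opposite pairs 3, 10 with the unadjusted p, and 3 within 1000 bp. With a mean CPM of at least 1, the same-strand upstream, convergent and strandless counts were 33, 25 and 18, and with the unadjusted p the strandless count was 60. Within 1000 bp, 17 same-strand downstream and 10 divergent members were called. The cause of these shifts was not tested except where stated.

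A replicate block, for numbers that do not pair the libraries, gave 107 members, 66 neighbours, 5 same-direction and 3 opposite pairs, and 18 same-strand downstream, 21 convergent and 18 strandless members. With a library left out, members ranged over 138 to 151, neighbours over 82 to 92, same-direction pairs over 12 to 18, opposite pairs over 3 to 6 and ratio calls over 149 to 162. By class the ranges were 36 to 49 same-strand upstream, 20 to 27 same-strand downstream, 21 to 22 divergent, 27 to 32 convergent and 24 to 37 strandless. No member called both as reported and in another fit, over the normalizations, filters, thresholds, DESeq2, limma, block and left-out libraries, had opposite signs in them. Locus sums were not part of that comparison, and at MSTRG.18967, MSTRG.19819 and MSTRG.19820 the sum has the opposite sign to some called isoforms. Single members were followed through the other fits only where they were chosen by the naming rules given above. Of these, MSTRG.14490.1, MSTRG.4576.1, MSTRG.16475.2, MSTRG.27278.1, MSTRG.5494.1, MSTRG.15419.1 and MSTRG.25712.1 lost their call with limma on log2(FPKM + 1). That fit called 98 members, of which 79 were also called as reported, with the same sign. Other called members named in the text, such as MSTRG.5777.1, MSTRG.17327.1 and MSTRG.9027.1, were not followed one by one. Whether they kept their call in that fit is therefore not given. Members with few counts, and isoforms that share reads, limit what the depth can show.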
